A study of Mus musculus with 16 samples.

Results

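Grb2, Sos1, Nras, Hras, Braf, Map2k1 and Mapk3 encode the core of the RAS-ERK cascade that lies downstream of the receptor tyrosine kinase RET. The 7 genes were taken by name from the 46078 genes of the count table, with earlier results of these data known. All 7 passed the filter on low counts in every comparison below. They were measured in libraries made from pools of 30 haematopoietic stem cells (HSCs), sorted as LSK CD48-CD150+ cells, from untreated mice of the C57/Bl6 strain. Cells came from 2 bone marrow compartments, the bone fraction (endosteal) and the marrow fraction (central), in animals of either WT or Gfra2-/- genotype, the latter without a functional gene for the GDNF family receptor GFRα2. The labels name 16 samples, and 15 libraries were used: 4 WT endosteal, 4 WT central, 4 Gfra2-/- endosteal and 3 Gfra2-/- central. One labelled Gfra2-/- central sample was not analysed here. No age is given in the labels. The study calls the pools of a group biological replicates, but whether each pool came from a different mouse is not given in the sources used here, so the p-values measure the spread between libraries. The Gfra2 deletion is carried by the whole animal, nerves and stroma included, so an effect inside the HSC and one of its surroundings cannot be told apart.

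In this cascade, an activated receptor is bound by the adaptor GRB2, which carries the exchange factor SOS1 to the membrane. SOS1 loads GTP onto the small GTPases of the RAS family, among them NRAS and HRAS. GTP-bound RAS recruits RAF kinases such as BRAF, which phosphorylate the MEK kinases (MEK1 is the product of Map2k1), and these in turn phosphorylate ERK kinases such as ERK1 (Mapk3). In HSCs the same cascade is also driven by KIT and other cytokine receptors, and it is controlled mainly by phosphorylation, which mRNA levels do not show.

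The count of reads on genes was 4416648 to 14003634 per WT endosteal library, 826487 to 3367289 per WT central library, 8519094 to 18550008 per Gfra2-/- endosteal library and 7649803 to 14716308 per Gfra2-/- central library. Every WT central library was thus shallower than every library of the other groups. The HSC markers Kit, Ly6a, Slamf1, Procr, Mecom and Hlf were detected in each group. Libraries are named here by group and a letter, which only tells them apart. Libraries WT endosteal D, WT central D, Gfra2-/- endosteal D and Gfra2-/- central C had a share of spike-in RNA below 0.5%, 1 library in each group. Gfra2-/- endosteal D also carried the highest sums of the 5 B cell markers (1818 CPM, counts scaled to the TMM-adjusted library total) and of the 5 erythroid markers (432 CPM).

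The receptors upstream of the cascade were at the floor of detection. Ret had 3 counts in WT central A, 1 count in Gfra2-/- endosteal C and none in the other 13 libraries. Gfra2 had 4 counts in WT central C, 1 in WT endosteal D and 0 in the other 6 WT libraries. It had 2, 47, 1 and 9 counts in the 4 libraries labelled Gfra2-/- endosteal, and 0, 1 and 0 in those labelled Gfra2-/- central. The gene therefore did not separate the genotypes, and the parts of Gfra2 covered by these reads were not analysed here. Gfra1, a co-receptor related to Gfra2, had 138 counts in Gfra2-/- endosteal D and 0 to 2 counts in every other library.

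All 7 members of the cascade were expressed. Their level was compared between genes in CPM per kb of exon, which corrects for the length of the gene. In WT endosteal HSCs the mean level was highest for Grb2 (48.4 ± 4.64 CPM per kb, SD, n = 4) and Mapk3 (46.1 ± 16.7), followed by Nras (39.4 ± 12.9) and Map2k1 (33.5 ± 18.8). Each of these 4 genes overlapped its neighbour in the order. Hras (8.02 ± 4.51), Braf (5.45 ± 2.32) and Sos1 (2.91 ± 1.82) lay below, and no library of Hras reached the lowest library of Map2k1. In WT central HSCs the means were 87.9 ± 23.9 for Grb2, 80.4 ± 29.3 for Mapk3, 50.2 ± 48.1 for Nras, 15 ± 9.40 for Map2k1, 10.6 ± 13 for Hras, 5.89 ± 6.83 for Braf and 4.95 ± 3.28 for Sos1 (CPM per kb, n = 4), and each gene overlapped the next. In both groups of Gfra2-/- libraries the order was different, with Nras first (62.7 ± 40.5 CPM per kb in endosteal cells, n = 4, and 41.3 ± 12.2 in central cells, n = 3), Grb2 next and Mapk3 behind Map2k1 (17.1 ± 5.59 and 21.4 ± 9.95). Nras, Grb2, Map2k1 and Mapk3 each overlapped their neighbour there too. Sos1, Hras and Braf lay between 4.36 and 6.09 CPM per kb on average in these groups, below the other 4 genes.

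**Figure D1:**
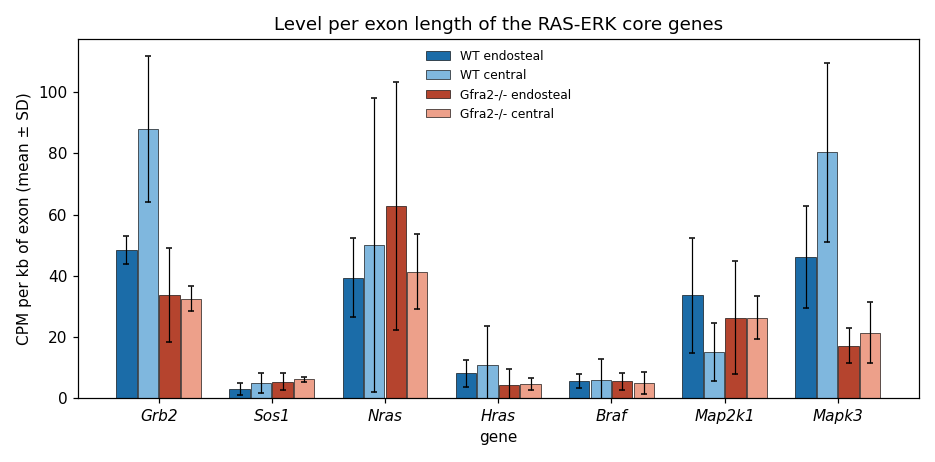
Mean level of each of the 7 genes in CPM per kb of exon (vertical axis) in the 4 groups of libraries, with bars for the SD over 3 or 4 libraries (bars that reach below 0 are cut at 0). Grb2, Nras, Map2k1 and Mapk3 stand above Sos1, Hras and Braf, and the Mapk3 bars of Gfra2-/- HSCs (17.1 and 21.4) are lower than those of WT HSCs (46.1 and 80.4).

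The adaptor came first in the pathway order. Grb2 (ENSMUSG00000059923, chr11:115644045-115708597, minus strand, GRCm38) was measured at 144, 133, 129 and 159 CPM in WT endosteal libraries A to D, and at 219, 182, 339 and 285 CPM in WT central libraries A to D. In Gfra2-/- endosteal libraries it was at 34, 125, 103 and 132 CPM, and in Gfra2-/- central libraries at 90.4, 85.6 and 108 CPM. The 4 WT central libraries were thus the highest of all 15, and none of them overlapped any other group.

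Between central HSCs of the 2 genotypes, Grb2 differed by a log2 fold change (Gfra2-/- against WT) of -1.46 (SE 0.39, unadjusted p = 0.00294), but did not pass the test over all genes (edgeR, FDR = 0.318, threshold 0.1). DESeq2 gave an FDR of 0.0175 for the same difference, where it called 3.44% of genes, and the highest FDR over the alternatives was 0.945, with spike-in scaling. In endosteal HSCs the log2 fold change was -0.51 (SE 0.41, FDR = 0.852). Between WT compartments it was -0.88, endosteal against central (SE 0.33, unadjusted p = 0.0205, FDR = 0.578), and between Gfra2-/- compartments 0.06 (SE 0.46, FDR = 0.999). Of the 50-base windows along Grb2 transcripts, 7.54% also occur in another annotated gene, mainly the pseudogene Gm12791, so part of its reads could not be assigned uniquely. Gm12791 itself held 0 to 147 counts per library.

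Sos1 (ENSMUSG00000024241, chr17:80393751-80480453, minus strand), the exchange factor that GRB2 brings to the membrane, ranged from 11.2 to 97.8 CPM. Its WT libraries alone covered 11.2 to 97.1 CPM, and it had only 15 counts in WT central A. The log2 fold changes between genotypes were 0.27 (SE 0.71, FDR = 0.949) in central and 0.85 (SE 0.62, FDR = 0.839) in endosteal HSCs. The groups overlapped for Sos1 in each of the 4 comparisons.

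Nras and Hras code for proteins whose first part, the GTP-binding region, is nearly the same. The longest run of bases shared by their coding sequences was 23, which is shorter than the reads of 50 bases, so reads from these coding sequences could be told apart.

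Nras (ENSMUSG00000027852, chr3:103058285-103067914, plus strand) had a higher mean level per kb than Hras in each group. It was at 148, 304, 218 and 171 CPM in WT endosteal libraries and at 139, 188, 648 and 95.0 CPM in WT central libraries. In Gfra2-/- HSCs it was at 263, 653, 174 and 248 CPM (endosteal) and at 279.5, 151 and 231 CPM (central). All 4 groups overlapped, and the highest value of the WT central and of the Gfra2-/- endosteal group came from a single library each. The log2 fold change between genotypes was -0.29 (SE 0.59, FDR = 0.936) in central and 0.67 (SE 0.42, FDR = 0.809) in endosteal HSCs.

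Hras (ENSMUSG00000025499, chr7:141189105-141194005, minus strand) was the least regular member. It had 0 of 11985523 counts in Gfra2-/- endosteal D, which allows up to 3 counts, and 80 counts or more in the other 6 Gfra2-/- libraries. WT central libraries held 29, 41, 6 and 331 counts. Its CPM values ran from 0 to 44.8 in Gfra2-/- and from 8.04 to 112 in WT libraries, and the standard errors of its 4 group comparisons (0.91 to 1.51 on the log2 scale) were larger than those of any other member. No comparison of Hras had an unadjusted p below 0.05.

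Braf (ENSMUSG00000002413, chr6:39603237-39725463, minus strand), the RAF kinase of the set, showed no difference past its spread. Its log2 fold changes in the 4 group comparisons lay between -0.28 and 0.12, with standard errors of 0.48 to 0.85. WT central A held 223 CPM, against 20.1 to 43.2 CPM in the other 3 libraries of that group. A short stretch of Braf, 1.05% of its exon bases, overlaps Ndufb2 on the opposite strand, and reads were counted without regard to strand.

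Map2k1 (ENSMUSG00000004936, chr9:64185770-64253631, minus strand), which encodes MEK1, was at 204, 110, 61.6 and 79.2 CPM in WT endosteal libraries and at 89.6, 17.7, 33.5 and 63.0 CPM in WT central libraries. These groups overlapped, with a log2 fold change (endosteal against central) of 1.13 (SE 0.62, unadjusted p = 0.0915, FDR = 0.670). It was the only member with an estimate above 0 there, although with spike-in scaling, described below, 5 of the 7 were above 0. In Gfra2-/- HSCs the compartments differed by 0.00 (SE 0.62), and the difference between these 2 compartment effects, -1.16 (SE 0.89), did not pass the test (edgeR FDR = 0.823).

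Mapk3 (ENSMUSG00000063065, chr7:126759601-126765819, plus strand), which encodes ERK1 at the end of the cascade, showed the largest difference between genotypes among the 7 genes. It was at 110.1, 101, 56.2 and 148 CPM in WT endosteal libraries A to D and at 120.4, 141, 268 and 196 CPM in WT central libraries A to D. In Gfra2-/- libraries it was at 25.0, 32.4, 53.7 and 43.6 CPM (endosteal) and at 22.4, 58.8 and 63.4 CPM (central). Within each compartment every Gfra2-/- library was thus below every WT library. In endosteal cells the margin was narrow, 53.7 CPM in Gfra2-/- endosteal C against 56.2 CPM in WT endosteal C.

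In central HSCs the log2 fold change of Mapk3 was -1.93 (SE 0.54), with means of 48.2 ± 22.5 CPM (SD, n = 3) and 181 ± 66.1 CPM (SD, n = 4). The unadjusted p was 0.00388, rank 139 of 11772 genes, and the edgeR FDR was 0.318. In endosteal HSCs the log2 fold change was -1.42 (SE 0.43), with means of 38.7 ± 12.6 and 104 ± 37.8 CPM (SD over 4 libraries each). Here the unadjusted p was 0.00802, rank 151 of 12970, and the edgeR FDR was 0.689. Neither comparison passed the threshold of 0.1. By DESeq2, the central difference passed it (FDR = 0.0176) and the endosteal one did not (FDR = 0.115). The highest FDR over the alternatives was 0.945 for the central difference and 0.9999 for the endosteal one. The 2 genotype effects did not differ from each other beyond their error (interaction 0.48, SE 0.65, FDR = 0.934).

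**Figure D2:**
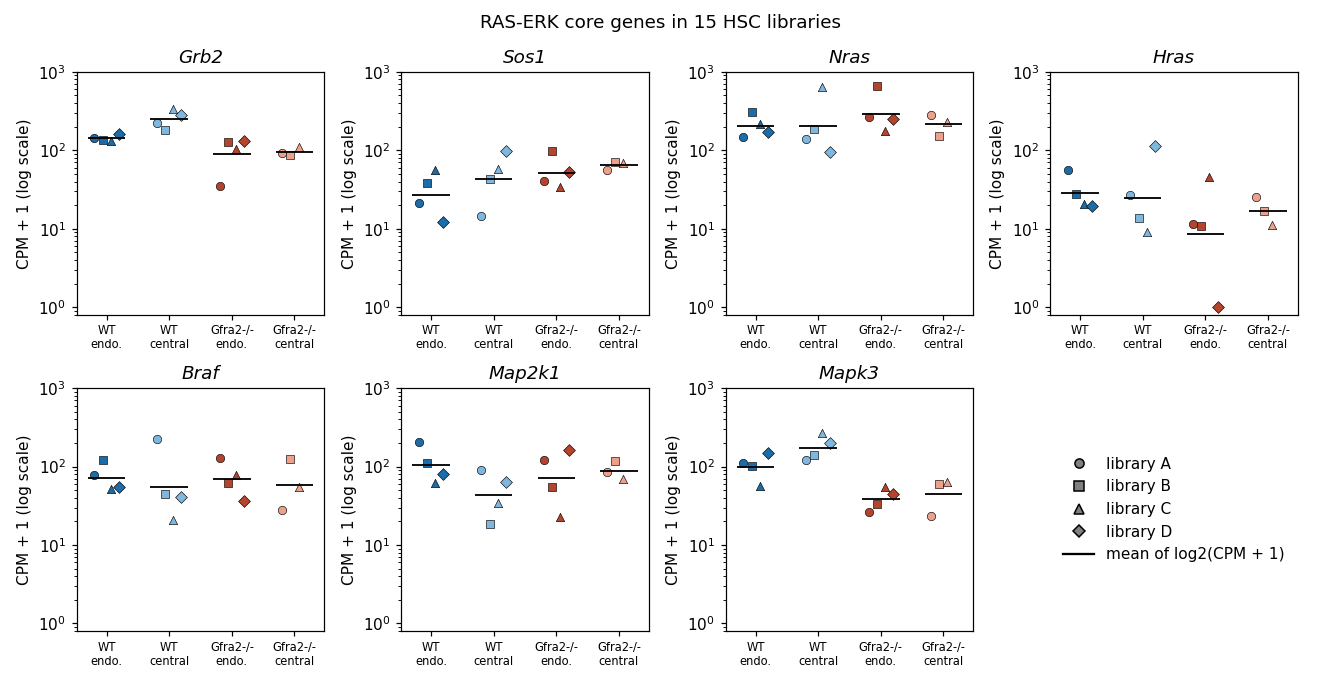
CPM + 1 (log axis) of the 7 genes in each of the 15 libraries, by group, with marker shapes for library letters and a line at the mean of log2(CPM + 1). Mapk3 is lower in all Gfra2-/- libraries (22.4 to 63.4 CPM) than in the WT libraries of the same compartment, Grb2 is highest in WT central libraries, and Hras is at 0 CPM in Gfra2-/- endosteal D.

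As the direction was shared by both compartments, the genotype was also fitted over all 15 libraries with the compartment as a covariate. This fit was added after the values had been seen. It treats the 15 libraries as independent. Whether an endosteal and a central pool came from the same mouse is not given, so a mouse may be counted more than once. Mapk3 differed by a log2 fold change of -1.65 (SE 0.33, unadjusted p = 0.000102) and passed the test over all genes (edgeR, FDR = 0.0426). By edgeR it was the only 1 of the 7 members to do so, where 124 of 15416 genes (0.804%) were called, and it ranked 36 by p. Grb2 came next with -0.93 (SE 0.30, FDR = 0.188). DESeq2 called both Mapk3 (FDR = 0.000114) and Grb2 (FDR = 0.0408) over both compartments, where it called 6.75% of genes. The other 5 members lay between -1.05 (Hras, SE 0.85, FDR = 0.694) and 0.60 (Sos1, SE 0.46, FDR = 0.668).

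The sign of the Mapk3 difference was negative in every setting tried, but its call was not kept in all. Leaving out Gfra2-/- central A, Gfra2-/- central B or WT endosteal D took the FDR to 0.140, 0.126 and 0.105. It was 0.161 without the 2 Gfra2-/- endosteal libraries with over 3 Gfra2 counts, 0.126 without the libraries under 1500000 reads on genes, 0.329 without the 4 libraries of low spike-in share, and 0.903 when libraries were scaled by spike-in RNA. On that last scale the median of all genes moved to 0.74, and the log2 fold change of Mapk3 was -1.10, or -1.84 relative to that median. With the class of spike-in share (under 0.5% or not) as a covariate, added after seeing the data, the FDR was 0.0524. Among the 4 libraries of low share, Mapk3 was at 63.4 CPM in Gfra2-/- and 196 CPM in WT central cells, and at 43.6 and 148 CPM in endosteal cells.

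**Figure D3:**
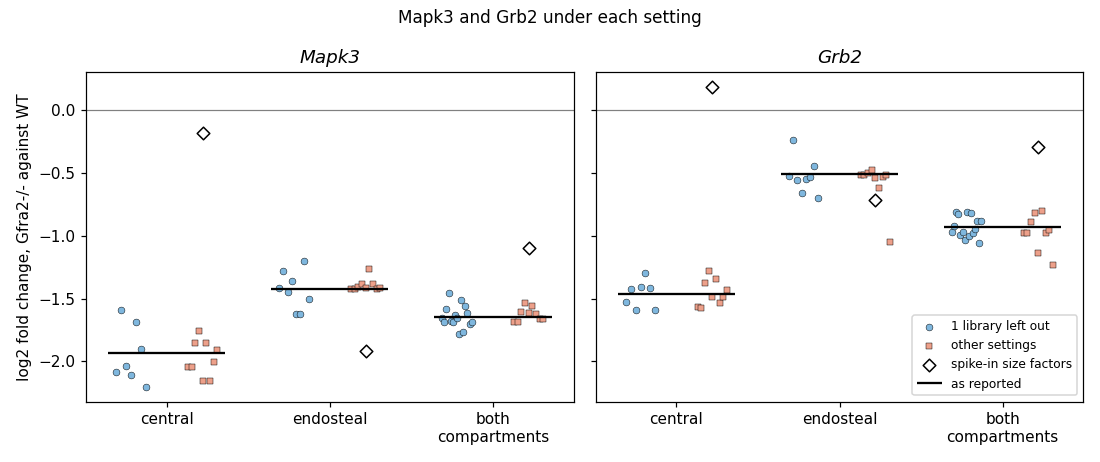
Log2 fold change of Mapk3 and Grb2, Gfra2-/- against WT, in central, endosteal and both compartments (horizontal axis), as reported (line), with 1 library left out (circles), under other settings (squares) and with spike-in size factors (diamonds). All values of Mapk3 lie below 0, and the spike-in value of Grb2 in central HSCs (0.18) is the single value of Grb2 above 0.

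Depth, mitochondrial share and spike-in scaling were also set beside the Mapk3 and Grb2 levels. WT central libraries were the shallowest, and with all libraries thinned to the smallest one the central log2 fold changes were -2.16 for Mapk3 and -1.49 for Grb2. The mitochondrial share of reads was 6.39 to 8.24% in WT central, 4.90 to 6.43% in WT endosteal, 3.24 to 6.74% in Gfra2-/- endosteal and 4.97 to 7.21% in Gfra2-/- central libraries, and its part in the result was not tested. Scaled by spike-in RNA, the median of all genes between central genotypes was 1.75, Mapk3 was at -0.19 and Grb2 at 0.18, which is -1.94 and -1.57 relative to that median. In such pools, fewer cells with a transcript and less transcript per cell cannot be told apart.

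Markers of other cells were looked at for the same libraries. The sum of the 5 B cell markers was 9.02 to 388 CPM in WT central, 19 to 98.9 CPM in WT endosteal, 34 to 1818 CPM in Gfra2-/- endosteal and 44.0 to 323 CPM in Gfra2-/- central libraries, with Gfra2-/- endosteal D at the top. Without this library the endosteal log2 fold change of Mapk3 was -1.5. The sum of the 7 neutrophil and monocyte markers reached 2455 CPM in WT central C and 320 to 2223 CPM in the other WT central libraries, against 418 to 1365 CPM in Gfra2-/- central libraries. Lyz2 alone reached 2438 CPM in WT central C, whereas the highest S100a8 (864 CPM) and S100a9 (796 CPM) values were in WT central D. Without WT central C the central log2 fold change of Mapk3 was -1.69. WT central D, with a sum of 2223 CPM, stayed in that fit, and no fit left out both. The part of these markers in the result was therefore not tested. Over all single libraries left out, the central log2 fold change of Mapk3 ran from -2.20 to -1.59. Chat, Th and Sox10 of nerve and glia, and Cdh5 of endothelium, were at 0 in all 15 libraries. Over the 15 libraries the marker sums ran from 1585 to 3469 CPM for HSCs and 163 to 745 CPM for megakaryocytes. They were 48.2 to 323 CPM for endothelium, and 0.31 to 84.9 CPM for Cd48 and Flt3. CD48 was excluded by the sort, whereas Flt3 was not part of it. The sums were 0 to 432 CPM for erythroid cells and 0 to 30.4 CPM for T and NK cells. For nerve and glia they were 0 to 28.1 CPM, and for stroma and bone 0 to 20 CPM.

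The differences of the 7 members were set beside those of all genes. The members were chosen with earlier results of these data known, so these shares carry no test. At an unadjusted p below 0.05, 2 of 7 were lower in central Gfra2-/- HSCs (Grb2 and Mapk3), where 4.14% of all genes tested were lower and 8.73% differed in either direction. In endosteal HSCs it was 1 of 7 (Mapk3), where 3.52% were lower and 6.69% differed. Between WT compartments 1 of 7 was lower in endosteal cells (Grb2), where 3.46% were lower and 7.89% differed. Between Gfra2-/- compartments and in the interaction none was, where 4.79% and 6.97% of genes differed. Over both compartments 2 of 7 were lower, where 5.38% were lower and 11.9% differed.

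The same 4 differences within the 4 group comparisons were those in which the libraries did not overlap. Of all genes, the Gfra2-/- libraries were lower without overlap for 4.44% in central cells (12.4% in either direction) and for 3.55% in endosteal cells (6.24%), and the endosteal WT libraries for 2.09% (6.36%). Between Gfra2-/- compartments no member was separated, where 7.34% of genes were. By edgeR, none of the 7 passed an FDR of 0.1 in these 4 comparisons or in the interaction, against a background of 0.051% of genes in the central comparison and 0% in the others. The central and endosteal genotype comparisons use different libraries, while each shares a group with the compartment comparisons. Whether endosteal and central pools came from the same mice is not given, so the genotype comparisons may not be independent.

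The median log2 fold change of the 7 genes was -0.29 in central and -0.34 in endosteal HSCs, beside 0.03 for all genes tested in each. With 5 of 7 estimates below 0 in both comparisons, beside 48.6% and 48.5% of all genes, the members did not move as 1 block, and with spike-in scaling 2 and 4 of 7 were below 0. Map2k1 and Sos1 had estimates above 0 in central cells (0.77 and 0.27), and Sos1 and Nras in endosteal cells.

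**Figure D4:**
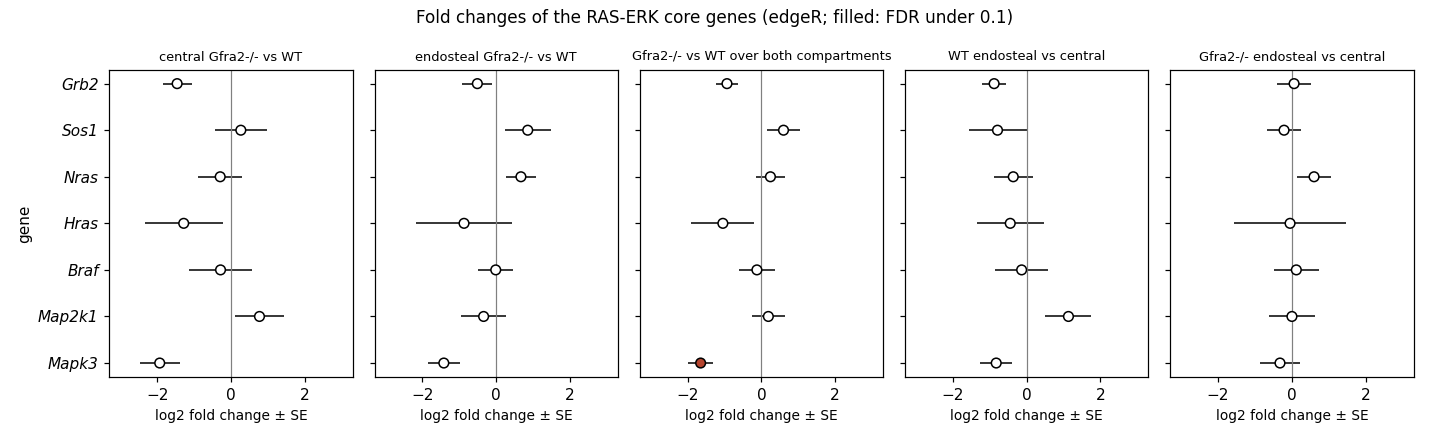
Log2 fold change ± SE of each of the 7 genes (rows) in 5 edgeR comparisons (panels), where a filled point marks an FDR under 0.1. The single filled point is Mapk3 over both compartments (-1.65), and the intervals of Hras are the widest.

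Several steps of the cascade are served by related genes, so their balance was measured as the log2 ratio of counts inside a library, which needs no scaling between libraries. For Map2k1 over Map2k2, which encode MEK1 and MEK2, the ratio was 1.83, -0.48, -1.05 and -0.14 in WT endosteal and 0.28, -0.67, -3.15 and 0.94 in Gfra2-/- endosteal libraries. In central cells it was 0.69, -3.08, -1.36 and -0.65 in WT and -0.63, 1.26 and -1.29 in Gfra2-/- libraries. The groups overlapped in all 4 comparisons, and the largest difference, 1.14 between WT compartments, had an exact two-sided permutation p of 0.314 (adjusted 0.754).

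For Sos1 over Sos2, a second exchange factor gene, the ratio ran from -2.46 to 3.32 in WT endosteal, -2.87 to 2.14 in WT central, -0.10 to 4.04 in Gfra2-/- endosteal and -1.10 to 1.80 in Gfra2-/- central libraries. The endosteal genotypes differed by 2.15 (exact permutation p = 0.229, adjusted 0.754). Hras was below Nras in 14 of 15 libraries and above it in WT central D (log2 ratio 0.23). The lowest ratio, -12.5, came from Gfra2-/- endosteal D, where Hras had no count, and its size is set by the 0.5 added. The exact permutation p of the 12 differences of these 3 ratios was 0.200 or more, and none passed the threshold after adjustment over 24 tests.

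**Figure D5:**
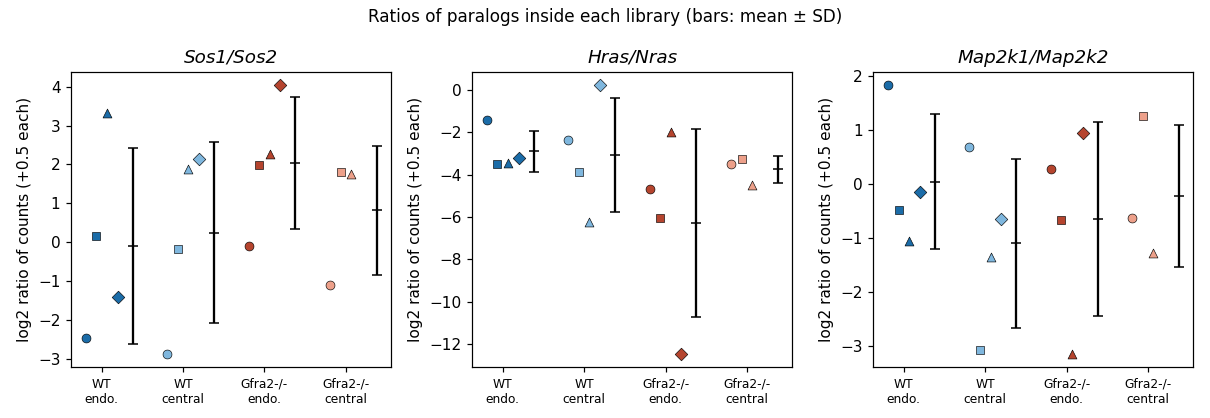
Log2 ratio of counts (0.5 added to each) of Sos1 to Sos2, Hras to Nras and Map2k1 to Map2k2 in each library, by group, with circles, squares, triangles and diamonds for libraries A to D and bars for mean ± SD. The groups overlap for all 3 ratios, and Gfra2-/- endosteal D stands lowest for Hras/Nras (-12.5).

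The 81 other genes of the pathway, from the GDNF-family ligands to the transcription factors that ERK activates, were read in the same fits. Of these, 57 were tested in the central and 58 in the endosteal genotype comparison, and none passed an FDR of 0.1. At an unadjusted p below 0.05, 3 were higher and 4 lower in central Gfra2-/- HSCs, and 5 were higher and 4 lower in endosteal ones. Of all genes, 4.6% were higher in central and 3.18% in endosteal Gfra2-/- cells at that level. Their median log2 fold changes were -0.25 and 0.03, beside 0.03 for all genes in each. None of the 9 ligands and receptors passed the filter on low counts in either comparison.

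In central HSCs the smallest p-values of the list belonged to Ppp1cb, a catalytic subunit of protein phosphatase 1, and Ywhaz, a 14-3-3 protein that binds RAF. Ppp1cb was at 157 ± 64.4 CPM in Gfra2-/- and 410 ± 130.1 CPM in WT libraries (log2 fold change -1.41, SE 0.39, edgeR FDR = 0.318), and Ywhaz at 293 ± 30.5 and 554 ± 43.8 CPM (-0.94, SE 0.27, FDR = 0.318). Rps6ka1, which encodes the ERK-activated kinase RSK1, was at 165 ± 25.6 CPM in Gfra2-/- and 55.5 ± 19.1 CPM in WT libraries (1.55, SE 0.49, FDR = 0.364). All 3 had groups that did not overlap. Of the 57 list genes tested there, 3 were higher and 4 lower without overlap, beside 12.4% of all genes in either direction.

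In endosteal HSCs, Dok2, an adaptor that restrains RAS signalling, was at 154 ± 13.9 CPM in Gfra2-/- and 56.1 ± 35.2 CPM in WT libraries (log2 fold change 1.45, SE 0.43, edgeR FDR = 0.667). Rasa3, a GTPase-activating protein that turns RAS off, was at 193 ± 64.8 and 101 ± 11 CPM (0.94, SE 0.31, FDR = 0.737). Neither gene overlapped between the genotypes, but for Rasa3 the lowest Gfra2-/- library (107.8 CPM) was barely above the highest WT library (107.5 CPM). Of the 58 list genes tested there, 2 were higher and 2 lower without overlap, beside 6.24% of all genes in either direction. Rras2, a GTPase related to RAS, was at 7.40 ± 1.86 and 43.5 ± 33.4 CPM, with overlapping libraries (-2.55, SE 0.84, FDR = 0.737). In the fit over both compartments, Ppp1cb (-1.37, SE 0.31, FDR = 0.0721) and Dok2 (1.51, SE 0.37, FDR = 0.0981) were the 2 of 66 tested genes of the list that passed, beside 0.804% of all genes, and these 2 calls were not run under other settings. The third smallest p belonged to Ets1, an ERK-activated transcription factor (2.76, SE 0.73, FDR = 0.123).

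Between WT compartments the list was led by Lamtor3, a scaffold for MEK and ERK at the lysosome (log2 fold change, endosteal against central, -1.61, SE 0.58, edgeR FDR = 0.537), the adaptor gene Crkl (3.22, SE 1.18, FDR = 0.559) and Elk4, an ERK-activated transcription factor (-1.13, SE 0.42, FDR = 0.563). Crkl was near the floor in WT central libraries, at 0 to 19.2 CPM (median 1.23), and at 30.2 to 86.4 CPM in WT endosteal libraries. Of 54 genes tested, 2 were higher and 3 lower at an unadjusted p below 0.05, beside 4.43% and 3.46% of all genes. Between Gfra2-/- compartments, only Rras2 of 64 genes reached that level (-2.63, SE 0.77, FDR = 0.896), ahead of Frs2 and Rasal2, beside 2.05% of all genes lower and 2.74% higher. In the interaction, Elk4 (1.55, SE 0.55, FDR = 0.554), Lamtor3 (1.65, SE 0.71, FDR = 0.658) and Araf, the RAF kinase on the X chromosome (-1.55, SE 0.71, FDR = 0.696), came first.

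Across the 15 libraries, Grb2 and Mapk3 were the 2 members whose levels ran together, with a Pearson r of 0.84 on log2(CPM + 1). The other 20 pairs of members had r from -0.49 (Nras and Hras) to 0.34 (Braf and Map2k1). These values describe 15 libraries that differ in depth and belong to 4 groups, so they carry no test. Hras was at 0 CPM in Gfra2-/- endosteal D, and its r values were not computed without this library. Among 10197 genes with a mean of at least 10 CPM, those most like Mapk3 were mt-Nd2 (r = 0.89), Gm12350 (0.89) and Romo1 (0.89), and those most like Grb2 were Dstyk (0.85), Vasp (0.85) and Lrpprc (0.84). For Nras they were Lcorl (0.89), Tgif1 (0.89) and Lyrm4 (0.80), and for Map2k1 Eef2k (0.81), Rhof (0.80) and Hk3 (0.80). Sos1 was most like 4933434E20Rik (0.84), Exo5 (0.83) and Fer (0.82), Hras most like Arid2, Daxx and Ercc6l2 (0.87 each), and Braf most like Plekhm1 (0.81), Mien1 (0.79) and Tep1 (0.77).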

How the data were processed

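RNA-seq libraries were made by the Smart-seq2 protocol from pools of 30 sorted HSCs. Per the labels and the study's methods, the authors aligned single-end reads of 50 bases to the mouse genome (GRCm38/mm10, Ensembl 81) with GSNAP (version 2015-09-29) and counted unique alignments per gene without strand with HTSeq (version 0.5.3p3). The deposited values are raw counts per gene, without molecular identifiers, and include 92 spike-in RNAs, which were kept out of library sizes. The column names carry neither group nor replicate number, and 15 columns were assigned to their group from the study's supplementary lists of libraries. Those lists leave out 1 further column, which was not used, so 1 of the 4 labelled Gfra2-/- central samples has no values here.

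Gene IDs were matched to symbols of GENCODE M21 (45143 of 46078 matched). Each comparison was fitted on its 2 groups with edgeR 4.0.16 (R 4.3.3): filterByExpr, TMM scaling and the quasi-likelihood test, with Benjamini-Hochberg adjustment over all genes tested and an FDR threshold of 0.1. Standard errors are the absolute log2 fold change divided by the square root of the F statistic. The interaction was fitted on all 15 libraries. CPM values share 1 TMM scaling over the 15 libraries. Ratios of related genes (0.5 added to each count) were compared with exact two-sided permutation tests (scipy 1.17.1), with adjustment over 24 tests, of which 12 are reported. The other 12, and the values of some related genes and markers, are not reported here. The edgeR fits were tested on simulated data, where the interaction fit recovered fewer of the changed genes than the others did. Alternatives were DESeq2 1.42.0, its size factors, spike-in size factors, no filter, a minimum of 10 counts in all libraries, thinning of all libraries to the depth of the smallest, 2 of the study's quality cut-offs (over 1500000 reads, here counts on genes, and under 20% mitochondrial reads; a cut-off on high coverage genes was not applied), libraries with at least 0.5% spike-in reads, all 4 groups in one fit, and each library left out. The fit over both compartments, the fits with the class of spike-in share (under 0.5% or not) as a covariate and those without libraries that had more than 3 Gfra2 counts were added after seeing the data.

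The members, the pathway list of 81 genes and the marker lists were chosen with earlier results of these data known. The text names the 7 members, paralogs of some of them, the receptor genes, the 3 genes of the pathway list with the smallest p in each comparison, and the 3 genes most correlated with each member. The precision of a level is limited by depth, and counting error alone is covered by a limit of 3 counts for a gene with 0 counts.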

Additional observations from a re-analysis of the deposited data

Results flagged for a closer look

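Values of the 7 genes and of the ratios of paralogs were checked in the 3 groups of 4 libraries, and 3 of 30 sets of 4 values held a library that stood apart from the other 3 by more than 0.829 of the whole range. Chance alone gives about 1 such set in 20. Nras was at 648 CPM in WT central C, with 95.0 to 188 CPM in the other WT central libraries. Braf was at 223 CPM in WT central A, with 20.1 to 43.2 CPM in the others. The log2 ratio of Hras to Nras was -1.43 in WT endosteal A, with -3.50 to -3.21 in the other WT endosteal libraries. WT central A and C are the 2 libraries with the fewest reads, 1230252 and 826487, and the part of depth in these values was not tested.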

How the results depend on the processing

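No paired analysis was possible because the count columns carry no replicate numbers. The number of genes called at an FDR of 0.1 depended on the tool and the filter. DESeq2 called 216 genes between WT compartments, 156 between Gfra2-/- compartments, 371 between central genotypes, 132 between endosteal genotypes, 172 in the interaction and 920 over both compartments, where edgeR called 0, 0, 6, 0, 0 and 124. Between WT compartments, the count was 58 without a filter, 11 with at least 10 counts in every library, 4 after thinning, 22 with all groups in one fit, 1 with the class of spike-in share as a covariate, and 0 to 6 with 1 library left out. Between Gfra2-/- compartments it was 15 with spike-in scaling. Between central genotypes it was 2 with spike-in scaling, 134 without a filter, 29 with at least 10 counts, 10 after thinning, 0 within the 2 quality cut-offs, 1 among libraries of higher spike-in share, and 0 to 8 with 1 library left out. Between endosteal genotypes it was 6 with spike-in scaling and 1 with all groups in one fit, and in the interaction 193 with spike-in scaling. Over both compartments it was 66 without a filter, 231 with at least 10 counts, 22 within the quality cut-offs, 0 among libraries of higher spike-in share, 18 without libraries of over 3 Gfra2 counts, and 15 to 159 with 1 library left out. The causes were not tested.

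The log2 fold changes of Mapk3 between genotypes kept their sign in all settings, from -2.20 to -1.59 (central), -1.63 to -1.20 (endosteal) and -1.78 to -1.46 (both compartments) with 1 library left out. Other signs turned, those of the larger central estimates of Grb2 (-1.46) and Hras (-1.28) among them. With spike-in scaling, the values that changed sign were 0.60 (Grb2), 2.03 (Nras), 1.80 (Braf) and 0.87 (Mapk3) between WT compartments; -0.30 (Grb2), -0.19 (Nras) and -0.52 (Braf) between Gfra2-/- compartments; 0.18 (Grb2), 2.45 (Nras) and 1.90 (Braf) in central cells; and 0.27 (Map2k1) in endosteal cells. In the interaction they were -0.90 (Grb2), -0.25 (Sos1), -2.22 (Nras), -0.42 (Hras), -2.32 (Braf) and -1.73 (Mapk3), and over both compartments 0.68 (Braf). Under this scaling the median of all genes was 1.58, -0.46, 1.75, -0.28, -2.18 and 0.74 in the order WT compartments, Gfra2-/- compartments, central, endosteal, interaction and both compartments. Within the quality cut-offs, they were 0.55 (Nras) and 0.84 (Braf) between WT compartments, -0.16 (Sos1), 0.59 (Nras) and 0.67 (Braf) in central cells, -0.74 (Braf) in the interaction and 0.26 (Braf) over both compartments. Among libraries of higher spike-in share, they were 1.03 (Hras) between WT compartments, 0.12 (Hras) and -0.59 (Map2k1) between Gfra2-/- compartments, 0.30 (Hras) in central cells, 0.0932 (Braf) in endosteal cells, and -0.18 (Sos1) and -1.04 (Hras) in the interaction. Without libraries of over 3 Gfra2 counts, they were -0.46 (Grb2), -0.0098 (Nras), 0.71 (Hras) and -0.32 (Map2k1) between Gfra2-/- compartments, 0.43 (Braf) in endosteal cells, -0.0900 (Sos1) in the interaction, and -0.0967 (Nras) and 0.0892 (Braf) over both compartments. With the class of spike-in share as a covariate, they were 0.31 (Hras) between WT compartments and -0.0342 (Braf) and -0.0974 (Map2k1) between Gfra2-/- compartments. Braf in endosteal cells was at 0.00122 without a filter and 0.0257 with at least 10 counts, Map2k1 between Gfra2-/- compartments at -0.0149 with at least 10 counts and at -0.00997 after thinning, Hras there at 0.0802 after thinning, and Sos1 in central cells at -0.0988 after thinning.

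With 1 library left out, the fold changes that changed sign ranged from -0.68 to 0.57 (Nras), -0.92 to 0.87 (Hras) and -0.44 to 1.10 (Braf) between WT compartments. Between Gfra2-/- compartments they ranged from -0.12 to 0.35 (Grb2), -1.31 to 0.37 (Hras), -0.26 to 0.88 (Braf) and -0.45 to 0.33 (Map2k1). In central cells the ranges were -0.0501 to 0.75 (Sos1), -0.59 to 0.62 (Nras), -1.66 to 0.0522 (Hras) and -1.04 to 0.94 (Braf), and in endosteal cells -0.40 to 0.30 (Braf) and -0.79 to 0.0834 (Map2k1). In the interaction they were -0.98 to 0.82 (Hras) and -1.0 to 0.92 (Braf), and over both compartments -0.0756 to 0.67 (Nras) and -0.36 to 0.41 (Braf). The ratios that changed sign, by comparison, were -1.48 to 0.44 (Sos1/Sos2) and -0.89 to 1.26 (Hras/Nras) between WT compartments, -0.96 to 0.40 (Map2k1/Map2k2) between Gfra2-/- compartments, -0.47 to 1.53 (Sos1/Sos2) and -1.74 to 0.41 (Hras/Nras) in central cells, and -1.22 to 0.15 (Map2k1/Map2k2) in endosteal cells.

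Depth limits WT central libraries most, where Sos1, Hras, Braf and Map2k1 had under 50 counts in at least 1 library, and 3 or 4 pools per group limit the size of a change that can pass the test over all genes.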
